A study of Strongylocentrotus purpuratus with 2 samples.

Results

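Transcripts named for G protein-coupled receptors were followed in embryos of Strongylocentrotus purpuratus, the purple sea urchin. The members were chosen by name, with 17 name patterns such as Galr, Gpr, Drd, Adrb and Opsin applied to the gene names in the deposited tables. Earlier results of these data were known when the members were chosen. The patterns found 113 transcript models of 17269 in all, and 83 of them had a value. Fertilized eggs had been injected with a morpholino against soxC or with glycerol, and total RNA was taken at 30 hours after fertilization from about 1000 embryos per sample kept at 15 °C. The groups were 1 library labelled SoxC morpholino, with 4763995 recovered reads, and 1 glycerol control library, with 4414503. Strain and genotype are not stated for either group, and no library from a control morpholino was compared here. The effect of the soxC target, that of any morpholino and a difference in culture, stage or library preparation cannot be told apart. With 1 library per group no spread between samples could be measured and no test between the conditions was made.

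G protein-coupled receptors are proteins of the cell surface that cross the membrane repeatedly and, when a ligand binds outside, activate a heterotrimeric G protein inside. The G protein subunits then act on enzymes such as adenylyl cyclase and phospholipase C, while receptor kinases, arrestins and RGS proteins end the signal. Ligands include amines, peptides, acetylcholine, glutamate, adenosine and, for opsins, light-sensitive retinal. The SoxC family of transcription factors is known in several animals for a role in the differentiation of neurons, which use many of these receptors.

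The deposited value per model is a normalized signal made of equal steps within a library, each worth 1 read, so it could be turned back into reads. It is not corrected for transcript length, so no order of level is read between genes. A model is called measured when the mean of its levels in the libraries was at least 1 CPM, a count of recovered reads scaled to a common library total. It is called higher or lower when the signal differed at least 2-fold and the exact Clopper-Pearson 95% interval of the ratio lay wholly on that side of equality. Such an interval, given in parentheses below, covers counting error only, since 1 library per group leaves no spread between samples to measure. The reads are not known to be separate molecules, so it may be too narrow even for counting error. The soxC model, Sp-SoxC, had a signal of 38052.2 in the SoxC morpholino library and 10632.2 in the glycerol control, a ratio of 3.58 (3.46 to 3.71). A morpholino blocks translation or splicing, so this transcript does not check the labels. Of 22 markers listed for 6 embryonic territories, 17 had a value, with at least 1 read in both libraries for each and between 1 and 78270 reads in a library. Each territory had at least 2 such markers. Of the 15 markers above the floor on the level set above, 0 were higher and 1 lower: the neural marker Sp-Brn1-2-4, with 155 reads in the SoxC morpholino library and 591 in the glycerol control, a ratio of 0.252 (0.210 to 0.301). The pigment cell marker Sp-Ployketide_synthase_like had 78270 reads in the SoxC morpholino library and 55195 in the glycerol control, a ratio of 1.36 (1.35 to 1.38), and Sp-gcm had a ratio of 1.24 (1.18 to 1.32). The endoderm marker Sp-Gatae had 693 reads in the SoxC morpholino library and 995 in the glycerol control, a ratio of 0.669 (0.606 to 0.738). Of the 15, 7 had a ratio over 1 and 8 a ratio under 1, and the part of such differences in the receptor values was not tested. The RNA is from whole embryos, where fewer cells of a type and less RNA per cell cannot be told apart.

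Of the 83 receptor-named models with a value, 48 were measured, and 0 of these were higher and 3 lower in the SoxC morpholino library. The 3 were Sp-Galr2L_14, of the galanin receptor names, the opsin-related model Sp-Gpcr, and Sp-Adrb3L_1, of the beta adrenergic receptor names. That is 6.25% of the measured members lower, beside 4.75% of all 8819 measured models, and the share higher was 0.658% among all models. The members' share lower was thus near that of all models. The median log2 ratio of SoxC morpholino over glycerol control was -0.19 for the 48 members and -0.21 for all measured models, with quartiles at -0.51 and 0.12 for the members and at -0.49 and 0.05 for all models. Relative to that median of all models, 28 members were above and 20 below. The interval lay wholly below that median for 5 members and wholly above it for 3, beside 896 and 1095 of all models. The 3 were Sp-Gpr54L_3, Sp-Gpr52L_5 and Sp-Galr2L_4. For 38 of the 48, or 79.2%, the interval included equal signal, beside 70.5% of all models. It lay below equality for 9 members and above it for 1, Sp-Gpr54L_3. Among all 8819 measured models it lay below equality for 2254 and above it for 352, so most such intervals were below there too.

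The number of members lower moved with the setting, and so did the share of all models. With the median of all models taken as equality (median of ratios), 1 member was lower, 2.08% of those measured beside 2.38% of all models. At 3-fold 1 member was lower, 2.08% beside 1.93%. At 1.5-fold there were 7 members lower, 14.6% beside 9.91%. By the fold alone there were 6 lower, 12.5% beside 8.62%, and 1 higher, 2.08% beside 2.11%. Scaling to total reads gave 3 members lower, 6.25% beside 5.43%. An exact binomial test gave 3, 6.25% beside 2.82%. No floor on the level gave 3 of 83 members, 3.61% beside 3.39%. Scaling to the upper quartile gave 2, 4.17% beside 2.8%, and totals without the most abundant model gave 2, 4.17% beside 2.79%. A floor of 5 CPM left 26 members, with 2 lower, 7.69% beside 2.68%. The members' share lower was above that of all models except with the median of ratios, on 1 to 7 members. Sp-Galr2L_14 met each of these settings except the floor of 5 CPM, under which it was not measured. It passed the floor of 1 CPM through the glycerol control alone, at 3.62 CPM there and 0 CPM in the SoxC morpholino library. A model that enters in this way can only be lower, so its return under many settings is no added support.

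**Figure D1:**
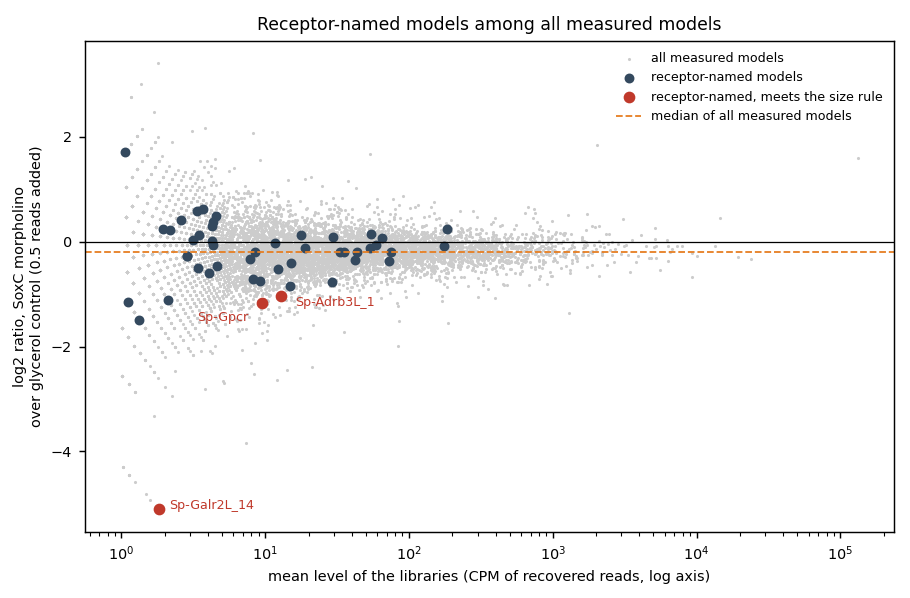
Each point is a measured transcript model, with the mean level of the libraries in CPM on a log axis and the log2 ratio of SoxC morpholino over glycerol control, 0.5 reads added to each count. Of the 48 receptor-named models (large points among the small points of all 8819), the 3 that met the size rule are red, and Sp-Galr2L_14, with 0 reads in the SoxC morpholino library, is at the lower edge of the plot at -5.10.

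The name groups were unequally covered. Of the 17 patterns, 13 found at least 1 model, and Npy, Hcrtr, Cckr and Mtnr found 0. A value was missing in both libraries for 30 members, which is 26.5% of them, beside 25.1% of all models, and a blank is treated as missing and not as 0. By their names 3 of these blank models are no receptors: those named Sp-GPRK1 with Sp-GPRK2, and Sp-GPRK3, carry the name of receptor kinases, and GPR177 in mammals is Wntless, a carrier of Wnt proteins. Of the models with a value, 57.8% were measured, beside 68.1% among all models. On 11 of the 83 models, 8 of them measured, stands at least 1 gene name outside the patterns, and the reads of those names cannot be separated. In all, the 83 members took 5284 reads in the SoxC morpholino library and 5506 in the glycerol control, which is 0.111% and 0.125% of the recovered reads.

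**Figure D2:**
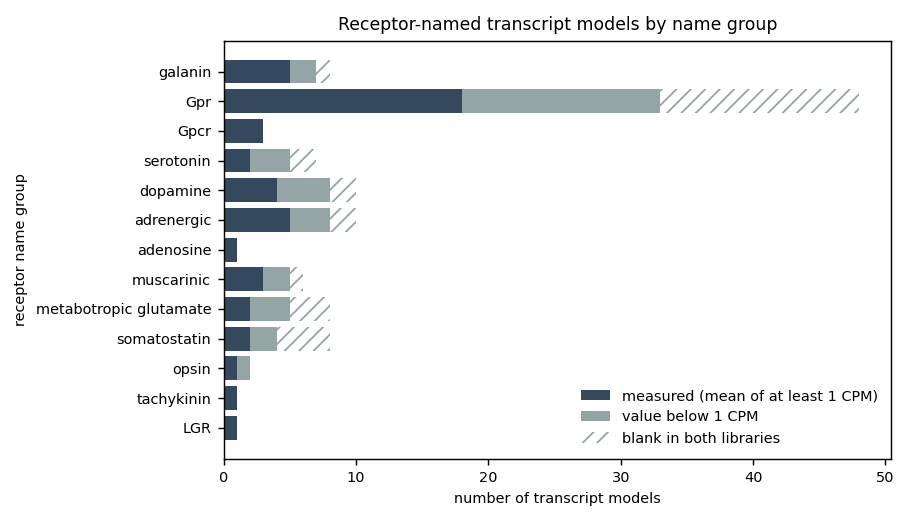
Bars count receptor-named transcript models by name group, split into measured models, models with a value below 1 CPM and models blank in both libraries. The Gpr names are the largest group with 48 models, of which 18 were measured, and the adenosine, tachykinin and LGR names have 1 model each.

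Among the receptors for peptides, the galanin receptor names gave the widest contrast between models of a single group. Galanin is a vertebrate neuropeptide, and the ligands of the urchin models are not known from the names. Sp-Galr2L_14 (WHL22.395150.0) had a signal of 0 in the SoxC morpholino library and 42.4 in the glycerol control, from 0 and 16 reads. Set against a floor of 3 reads in the SoxC morpholino library it was 5.55-fold lower, a value that leaves out the counting error of the control reads. The bound from its counting interval was 4.01-fold lower. Of all 8819 measured models, 11 had no read in the SoxC morpholino library, and Sp-Galr2L_14 had the most control reads of the 11. Each of the 11 passed the floor on the level through the glycerol control alone.

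The other galanin receptor names did not meet the rule. Sp-Galr2L_4, with the most reads of the group, had a signal of 793.7 in the SoxC morpholino library and 757.2 in the glycerol control, a ratio of 1.05 (0.89 to 1.23). The values lie close together, and the interval spans equality but lies above the median of all models. Sp-Galr2L_16 was at 58.5 in the SoxC morpholino library and 45.0 in the glycerol control, a ratio of 1.3 (0.665 to 2.59). Sp-Galr2L_3 was at 56.0 in the SoxC morpholino library and 45.0 in the glycerol control. Both were higher in the SoxC morpholino library by less than the counting error. Sp-Galr2L_12 was at 15.3 in the SoxC morpholino library and 34.4 in the glycerol control, from 6 and 13 reads, and its interval of 0.138 to 1.25 is wide. Of the 5 measured models of this group, 3 had a ratio above the all-model median and 2 a ratio below it. Their names mark them as related sequences, and how reads shared between related models were assigned is not known.

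The kisspeptin receptor GPR54 binds a peptide that controls reproduction in mammals, and Sp-Gpr54L_3 is named after it. This model had the most reads of all members, 930 in the SoxC morpholino library and 756 in the glycerol control. Its signal was 2365.7 in the SoxC morpholino library and 2001.5 in the glycerol control, a ratio of 1.18 (1.07 to 1.30). It is the 1 member whose interval lay above equality, and its ratio is far short of 2-fold. Another model named Sp-GPR54 had 0 reads in the SoxC morpholino library and 1 in the glycerol control, too few to compare.

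Somatostatin receptors bind an inhibitory peptide in vertebrates. Sp-Sstr4L_2 had a signal of 363.8 in the SoxC morpholino library and 341.5 in the glycerol control, and Sp-Sstr4l had 213.7 in the SoxC morpholino library and 233.0 in the glycerol control. Their ratios were 1.07 (0.834 to 1.36) and 0.917 (0.672 to 1.25), so the libraries differed by less than the counting error for both. The tachykinin receptor name Sp-Tacr2L_1 was at 94.1 in the SoxC morpholino library and 108.5 in the glycerol control, a ratio of 0.867 (0.541 to 1.39). Of the leucine-rich repeat group, which in vertebrates includes glycoprotein hormone receptors, Sp-LGR had 20 reads in the SoxC morpholino library and 19 in the glycerol control. That model also carries another receptor name, Sp-KR/FA58C/CLECT/EGF-GPCR.

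**Figure D3:**
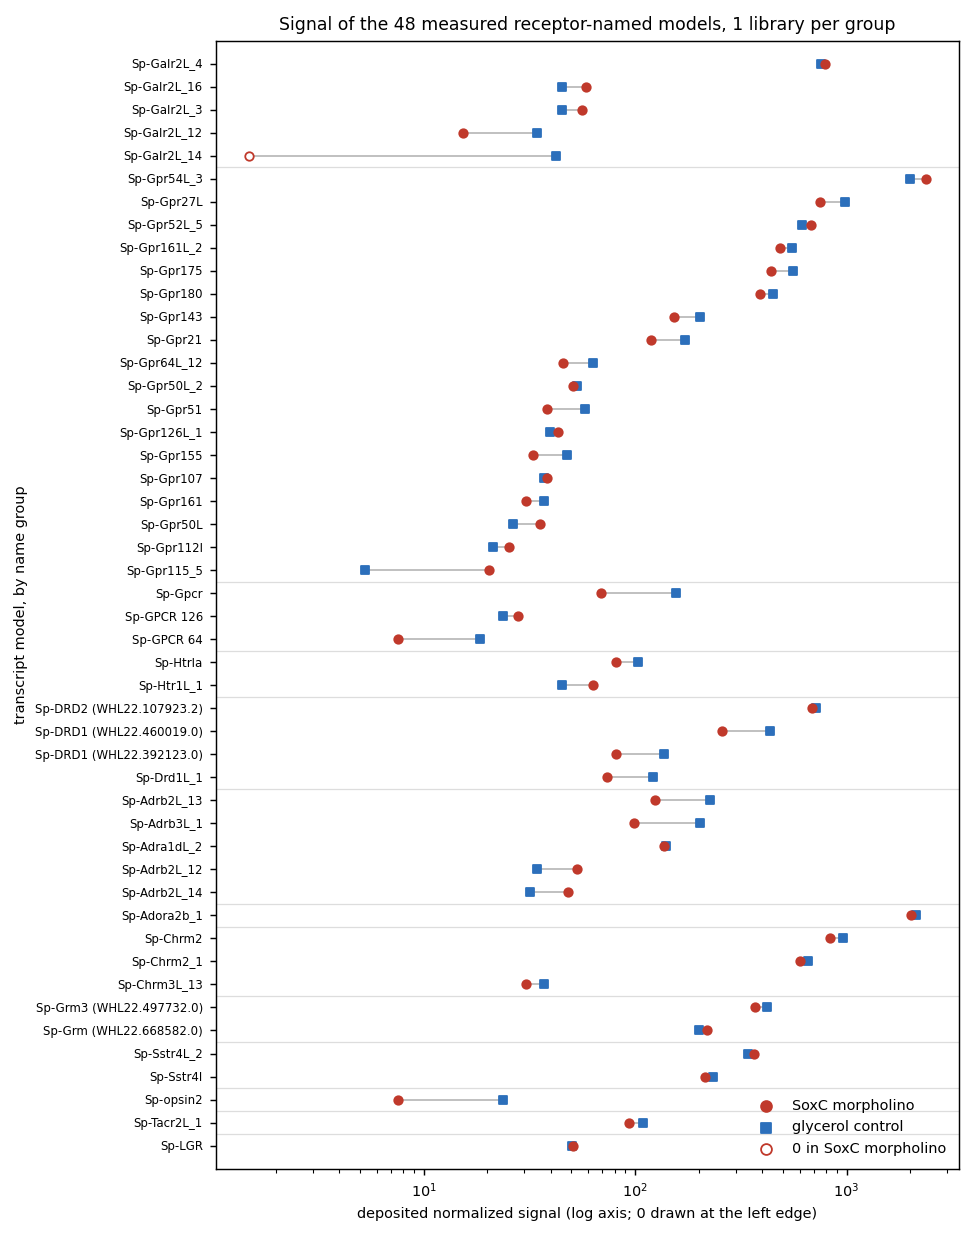
Deposited signal of each of the 48 measured receptor-named models in the SoxC morpholino library (circles) and the glycerol control (squares), on a log axis and ordered by name group; the open circle is Sp-Galr2L_14, at 0 in the SoxC morpholino library. The widest pairs are those of Sp-Galr2L_14, Sp-Gpr115_5 (3.84-fold, higher in SoxC morpholino) and Sp-opsin2 (3.12-fold, lower), all from at most 16 reads in a library.

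Dopamine receptors fall into a D1 type, which raises cyclic AMP in vertebrates, and a D2 type, which lowers it. All 3 measured models with a D1 name had lower signal in the SoxC morpholino library, although none reached 2-fold, and 71.5% of all measured models also had lower signal there. Sp-DRD1 (WHL22.460019.0) was at 256.9 in the SoxC morpholino library and 436.8 in the glycerol control, and was 1.70-fold lower (1.32 to 2.20). Another model named Sp-DRD1 (WHL22.392123.0) was at 81.4 in the SoxC morpholino library and 137.7 in the glycerol control, 1.69-fold lower (1.07 to 2.71). Sp-Drd1L_1 was at 73.8 in the SoxC morpholino library and 121.8 in the glycerol control, 1.65-fold lower (1.02 to 2.73). The 3 log2 ratios lay between -0.76 and -0.71, all below the all-model median, and the intervals of Sp-DRD1 (WHL22.392123.0) and Sp-Drd1L_1 included that median.

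The measured model with a D2 name had nearly equal values. Sp-DRD2 (WHL22.107923.2) had a signal of 686.8 in the SoxC morpholino library and 717.5 in the glycerol control, a ratio of 0.957 (0.806 to 1.14). A difference between the D1 and D2 names was not tested. The DRD2 model also carries the name of a hypothetical protein, Sp-Hypp_1254. Of the dopamine receptor names below the floor, a further Sp-DRD1 (WHL22.600009.2) had 5 reads in the SoxC morpholino library and 1 in the glycerol control, and Sp-Drd1L_4 had 1 read in the SoxC morpholino library and 4 in the glycerol control. A further Sp-DRD2 (WHL22.157150.0) had 5 reads in the SoxC morpholino library and 1 in the glycerol control, and Sp-Drd4L had 3 and 1. Among these low counts only Sp-Drd1L_4 had fewer reads in the SoxC morpholino library, and all are too few to compare.

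Adrenergic receptors answer to noradrenaline and adrenaline in vertebrates, and related invertebrate receptors can have other amine ligands. The beta names held both directions. Sp-Adrb3L_1 (WHL22.504386.0) had a signal of 99.2 in the SoxC morpholino library and 203.9 in the glycerol control, from 39 and 77 reads, and was 2.05-fold lower (1.38 to 3.10). Sp-Adrb2L_13, just short of the fold required, was at 124.6 in the SoxC morpholino library and 225.0 in the glycerol control, 1.81-fold lower (1.26 to 2.62). The low values of both models were in the SoxC morpholino library. Relative to the all-model median, the log2 ratio of Sp-Adrb3L_1 was -0.82, short of 2-fold.

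Sp-Adrb2L_12 and Sp-Adrb2L_14 had the higher value in the SoxC morpholino library. Sp-Adrb2L_12 was at 53.4 in the SoxC morpholino library and 34.4 in the glycerol control, a ratio of 1.55 (0.742 to 3.37). Sp-Adrb2L_14 was at 48.3 in the SoxC morpholino library and 31.8 in the glycerol control, a ratio of 1.52 (0.701 to 3.44). Both intervals include equality, from 13 and 12 control reads. The alpha name Sp-Adra1dL_2 was at 137.4 in the SoxC morpholino library and 140.3 in the glycerol control, a ratio of 0.979 (0.658 to 1.46).

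Serotonin receptors were thinly covered, with 2 of 5 models with a value measured. Sp-Htr1L_1 had 25 reads in the SoxC morpholino library and 17 in the glycerol control, a ratio of 1.41 (0.733 to 2.79). Sp-Htrla, whose name is spelled with the letter l and was taken by the Htr pattern, had 32 reads in the SoxC morpholino library and 39 in the glycerol control, a ratio of 0.788 (0.478 to 1.29). Neither difference exceeded counting error. The other serotonin names had at most 5 reads in either library.

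The receptor names of the patterns for acetylcholine, glutamate and adenosine included models with more reads, with ratios near those of all models. Muscarinic receptors are the G protein-coupled receptors for acetylcholine. Sp-Chrm2 had a signal of 834.4 in the SoxC morpholino library and 958.4 in the glycerol control, a ratio of 0.871 (0.747 to 1.01). Sp-Chrm2_1 was at 605.4 in the SoxC morpholino library and 659.2 in the glycerol control, a ratio of 0.918 (0.766 to 1.10). Both lie near the median of all models, at relative log2 ratios of 0.01 and 0.08. The other measured Chrm name, Sp-Chrm3L_13, had 12 reads in the SoxC morpholino library and 14 in the glycerol control. A muscarinic name outside the patterns, Sp-mAChR M5, went the other way. It had 60 reads in the SoxC morpholino library and 44 in the glycerol control, a log2 ratio of 0.39.

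Metabotropic glutamate receptors modulate synapses, and 2 models were measured. Sp-Grm3 (WHL22.497732.0) was at 368.8 in the SoxC morpholino library and 420.9 in the glycerol control, a ratio of 0.876 (0.695 to 1.10). Sp-Grm (WHL22.668582.0) was at 218.8 in the SoxC morpholino library and 201.2 in the glycerol control, a ratio of 1.09 (0.789 to 1.5). The pair lie on opposite sides of equality, and neither differed from it beyond counting error. Both were above the all-model median, at relative log2 ratios of 0.02 for Sp-Grm3 and 0.33 for Sp-Grm. The adenosine receptor name Sp-Adora2b_1 had the second highest number of reads of all members, with a signal of 2014.7 in the SoxC morpholino library and 2131.2 in the glycerol control, a ratio of 0.945 (0.856 to 1.04). Its counting interval leaves room for no more than a 1.17-fold lower signal in these libraries.

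Of the opsin names and a model that also carries an opsin name, that model alone met the rule. Opsins are light receptors, and sea urchins have several, expressed for instance in tube feet of adults. Sp-Gpcr (WHL22.290080.0), a model that also carries the name Sp-Opn5L, had a signal of 68.7 in the SoxC morpholino library and 156.2 in the glycerol control, from 27 and 59 reads. It was 2.27-fold lower (1.42 to 3.73), and its log2 ratio was -0.96 relative to the median of all models, just short of 2-fold. Sp-opsin2 was at 7.6 in the SoxC morpholino library and 23.8 in the glycerol control, from 3 and 9 reads, with a ratio of 0.32 and an interval of 0.0558 to 1.28 that includes equality. The model named Sp-Opsin3.2 and Sp-Opsin3.1 had 0 reads in the SoxC morpholino library and 1 in the glycerol control. At this depth, no difference was detectable for the models found by the Opsin pattern.

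The numbered Gpr names include receptors whose vertebrate namesakes are known under other names. Of their 18 measured models 0 were higher and 0 lower, 10 had ratios above the all-model median and 8 below it. The log2 ratios ran from -0.60 for Sp-Gpr51 to 1.71 for Sp-Gpr115_5, with a median of -0.20. Human GPR51 is a subunit of the GABA-B receptor, and Sp-Gpr51 (WHL22.313848.0) had 15 reads in the SoxC morpholino library and 22 in the glycerol control, a ratio of 0.655 (0.316 to 1.32). Sp-Gpr115_5 had 8 reads in the SoxC morpholino library and 2 in the glycerol control, a ratio of 3.84 whose interval, 0.767 to 37.2, includes equality. Both ends of the range therefore rest on few reads.

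The Gpr names with many reads stayed near equality. GPR161 is a receptor of the primary cilium that restrains Hedgehog signalling in mice, and Sp-Gpr161L_2 had a signal of 483.3 in the SoxC morpholino library and 553.3 in the glycerol control, a ratio of 0.873 (0.714 to 1.07). Sp-Gpr27L was at 753.0 in the SoxC morpholino library and 979.6 in the glycerol control, 1.30-fold lower (1.11 to 1.52). Sp-Gpr175 was at 437.5 in the SoxC morpholino library and 561.3 in the glycerol control, 1.28-fold lower (1.04 to 1.58). For Sp-Gpr27L and Sp-Gpr175 the interval lay below equality but included the median of all models, which is 1.15-fold lower. Sp-Gpr52L_5, named like Sp-Gpr27L for an orphan receptor of the vertebrate brain, was at 681.7 in the SoxC morpholino library and 614.2 in the glycerol control, a ratio of 1.11 (0.928 to 1.33).

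Further Gpr names were spread around the all-model median. Sp-Gpr180 was at 389.2 in the SoxC morpholino library and 447.4 in the glycerol control, a ratio of 0.870 (0.694 to 1.09). GPR143 is a receptor of pigment organelles that is lost in ocular albinism in humans, and Sp-Gpr143 was at 152.6 in the SoxC morpholino library and 203.9 in the glycerol control, a ratio of 0.749 (0.525 to 1.06). Sp-Gpr21 was at 119.6 in the SoxC morpholino library and 172.1 in the glycerol control, a ratio of 0.695 (0.467 to 1.03). All 3 were lower in the SoxC morpholino library by less than the counting error. Sp-Gpr50L, which also carries the melatonin receptor name Sp-Mel1aL, had 14 reads in the SoxC morpholino library and 10 in the glycerol control. Sp-Gpr50L_2 had 20 reads in each library.

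A set of Gpr and GPCR names belongs to the adhesion receptors, which join a long extracellular part to the membrane-crossing part. Of 23 models with such a name (those of Sp-Gpr64, Sp-Gpr112 and Sp-Gpr126 among them), 16 had a value and 6 were measured, with at most 42 reads over both libraries. GPR126 is needed for myelination by Schwann cells in mice and zebrafish, and Sp-Gpr126L_1 had 17 reads in the SoxC morpholino library and 15 in the glycerol control, a ratio of 1.09 (0.512 to 2.34). The adhesion-type models of the Gpcr group had as few: WHL22.756714.0 had 11 reads in the SoxC morpholino library and 9 in the glycerol control, and WHL22.580383.0 had 3 reads in the SoxC morpholino library and 7 in the glycerol control. None of the 6 met the rule. The model of Sp-Gpr64L_12 also carries names of hyalin and egg bindin receptor genes, so its reads may belong to those.

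**Figure D4:**
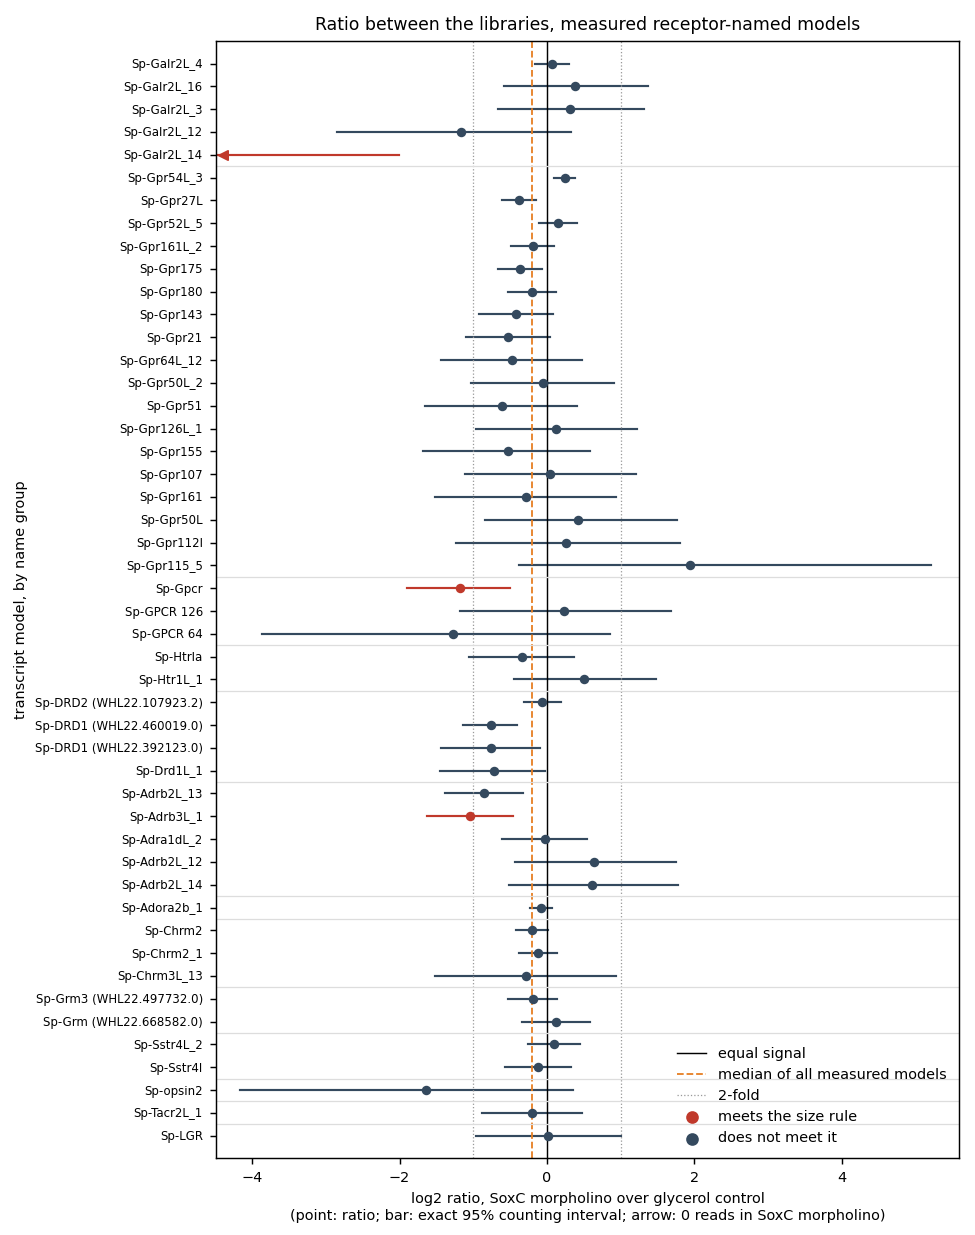
Points give the ratio of SoxC morpholino over glycerol control on a log2 axis for the 48 measured receptor-named models by name group, bars the exact 95% counting interval, and the arrow a model with 0 reads in the SoxC morpholino library. Red marks the 3 models that met the size rule; the dashed line is the median of all measured models, at -0.21, and dotted lines mark 2-fold.

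The spread among members narrowed with reads, as it did among all models. The 11 measured members with under 30 reads over both libraries had quartiles of the log2 ratio at -1.13 and 0.23, and the 21 members with 100 or more at -0.38 and -0.03. For all models the quartiles were -0.87 and 0.23 in the lower range of reads and -0.36 and -0.01 in the higher. Of the 21 members with 100 or more reads, 1 was lower, Sp-Adrb3L_1, beside 1.36% of all models in that range, and 18 (85.7%) lay within 1.5-fold of equality, beside 89.9% of all models. The 10 members with the most reads held 70.0% of all reads of the members. None of these 10 met the rule.

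The 35 members with a value below the floor had 63 reads in the SoxC morpholino library and 64 in the glycerol control in all. No single model among them had more than 9 reads over both libraries. In the SoxC morpholino library 12 of them had no read, and in the glycerol control 3. At 1 or 2 reads in the other library, this depth does not allow these to be told from models present in both. The same shares over all models below the floor are not given here, so the 12 and 3 are not read as a trait of the receptors.

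A list of name patterns for G protein subunits, regulators, second messenger enzymes and further receptors matched 80 models with no receptor name of the patterns above, and 26 were measured. Of the 26, 0 were higher and 0 lower, beside 0.658% and 4.75% of all measured models, and their median log2 ratio was -0.25. Of the 26, 11 are further receptors and 15 are subunits, regulators, enzymes and sensors. At this size of list, 0 lower is near the share of all models. Matches named GNBP or Pde4dip were left out after the names were seen, since such names belong to proteins of another kind. No model named for an arrestin, which switches receptors off, had a value. No model of a Gna or Grk name was found.

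RGS proteins shorten the G protein signal, and 7 models were measured. Sp-RGS20 was at 201.0 in the SoxC morpholino library and 315.0 in the glycerol control, a ratio of 0.638 (0.474 to 0.855). Sp-RGS-PX1, the RGS name with the most reads, was at 2256.3 in the SoxC morpholino library and 2308.6 in the glycerol control, a ratio of 0.977 (0.889 to 1.07). The log2 ratios of all 7 lay between -0.65 and 0.30, on both sides of the median of all models. Sp-Gnb1l, related by name to beta subunits, was at 40.7 in the SoxC morpholino library and 79.4 in the glycerol control, a ratio of 0.512 (0.261 to 0.970).

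Of the enzymes that make cyclic AMP, 3 were measured, and Sp-Adcy10, named for a soluble cyclase that no receptor G protein drives in mammals, had the most reads. It was at 501.1 in the SoxC morpholino library and 428.9 in the glycerol control, a ratio of 1.17 (0.944 to 1.45). Sp-Pde7aL, of the phosphodiesterases that remove cyclic nucleotides, was at 292.5 in the SoxC morpholino library and 293.9 in the glycerol control, a ratio of 0.995 (0.760 to 1.30). Sp-Rapgef4_1, named for a cyclic AMP sensor, was at 109.4 in the SoxC morpholino library and 103.3 in the glycerol control, a ratio of 1.06 (0.671 to 1.68). None of these enzymes and sensors differed beyond counting error. Among further receptors, the Wnt receptor Sp-Frizzled had the most reads and was at 7178.5 in the SoxC morpholino library and 8617.5 in the glycerol control, a ratio of 0.833 (0.792 to 0.876), which includes the median of all models.

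**Figure D5:**
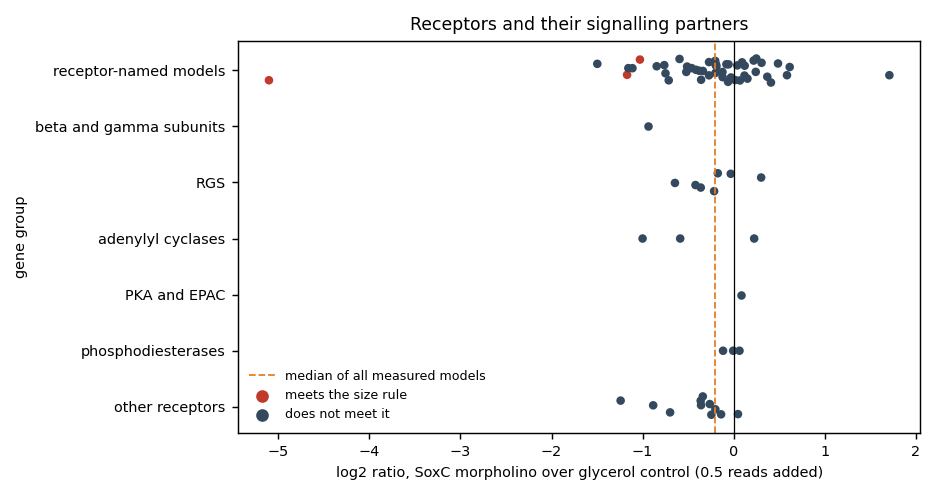
Log2 ratios of SoxC morpholino over glycerol control, with 0.5 reads added, for the 48 measured receptor-named models and for the 26 measured models of the signalling list by kind. Red points met the size rule, all of them receptor-named, and the dashed line is the median of all measured models.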

How the data were processed

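The authors deposited 1 normalized signal per transcript model and library. CASAVA 1.8 and Bowtie are named, with no role, per the submitters' processing notes; the counting tool, its use of strand, the annotation and the build were not given in the sources used here. Signals were divided by the step of each library, 2.54 in SoxC morpholino and 2.65 in glycerol control, which gave whole reads within 0.1 for 99.992% and 99.977% of models. Rows of a model were merged, since they repeat its value. Ratios used the deposited scaling. Intervals are exact Clopper-Pearson from the reads, and log2 ratios had 0.5 reads added. Levels are CPM of recovered reads. The interval and the read recovery were tested on simulated data. Members and lists were chosen with earlier results of these data known. Genes were named by rule: members that met the size rule, the 10 members with most reads, the member with most reads in each name group, all measured members of groups of up to 4, and for the list those that met the rule and the one with most reads per kind. Others were chosen after their values were seen, among them Sp-Galr2L_16, Sp-Galr2L_3, Sp-Galr2L_12, Sp-Adrb2L_12, Sp-Adrb2L_14, Sp-Adra1dL_2, Sp-Gpr180, Sp-Gpr143, Sp-Gpr21, Sp-Gpr50L, Sp-Gpr51, Sp-Gpr115_5, Sp-Gpr126L_1, Sp-Gpr64L_12 and Sp-RGS20. No deposited identifier matched the gene table at hand, so no positions or sequences are given. Python 3.11.15, pandas 2.3.3 and SciPy 1.17.1 were used.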

Additional observations from a re-analysis of the deposited data

How the results depend on the processing

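Against 0 higher and 3 lower receptor-named models, the median of ratios left 1 lower, 3-fold left 1, 1.5-fold gave 7 lower, and the fold alone gave 1 higher and 6 lower. At 1.5-fold the 7 were 14.6% of measured members, beside 9.91% of all models, and the 4 added were the models named for DRD1 and Sp-Adrb2L_13. For the median of ratios the share was 2.08%, beside 2.38% of all models. Sp-Galr2L_14 was lower under all of these settings, but it passed the floor on the level through the glycerol control alone. The upper quartile, a floor of 5 CPM, models with a single gene name, and totals without the most abundant model (chosen after the data were seen) each gave 2 lower, while total reads and no floor gave 3. An exact binomial test of the reads, Benjamini-Hochberg adjusted and also chosen after the data were seen, gave 3 lower members of 249 lower and 28 higher models in all; it compares these libraries, not the conditions. For the 26 measured models of the signalling list, total reads gave 1 lower, Sp-Gnb1l, beside 5.43% of all models. At 1.5-fold 2 of the list were lower beside 9.91% of all models, and by the fold alone 2 beside 8.62%. The members' median of -0.19 was 0.015 with the median of ratios, -0.033 with the upper quartile, -0.031 with totals without the most abundant model and -0.12 with no floor. The scalings move all models alike: the members' median lay 0.015 above that of all models under each scaling, 0.081 above it with no floor and -0.010 from it at 5 CPM. Of 145 log2 ratios of named members under other scalings and pseudocounts, 141 stayed within their counting interval, 4 moved out of it, and 0 of the models that met the rule changed direction. No paired analysis was possible because there is 1 library in a group. Depth limits the 27 measured members with under 100 reads most.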

Other observations

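Some of the receptors with names outside the patterns were looked at after the names and values had been seen. Many of 48 such models are named for protein domains of receptors, such as LRR-GPCR or LNB-7TM-GPCR. Others, such as Sp-surreal-GPCR93, have a receptor name that gives no domain. Of the 48, 27 were measured, with 0 higher and 3 lower in the SoxC morpholino library, beside 4.75% of all models lower. The median log2 ratio of the 27 was -0.21, the same as that of all models. Each of the 3 lower models has a domain name, and a share lower among domain names alone was not computed. A model named Sp-LRR-GPCR (WHL22.311109.0) had a signal of 17.8 in the SoxC morpholino library and 79.4 in the glycerol control, and was 4.46-fold lower (95% counting interval 1.92 to 12). Sp-LDLa/LRR-GPCR was 3.90-fold lower (1.24 to 16.2), from 4 reads in the SoxC morpholino library and 15 in the glycerol control. SP-CCP/HYR-LNB-7TM-GPCR was at 165.3 in the SoxC morpholino library and 354.8 in the glycerol control, 2.15-fold lower (1.58 to 2.93). Another model named Sp-LRR-GPCR (WHL22.549532.2), with the most reads of these, was at 2864.3 in the SoxC morpholino library and 2517.7 in the glycerol control, so the name alone does not set the direction.

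Receptors named in words, or by the short names Opn for opsins and Nmbr, were chosen in the same way and had 8 measured models. The opsin name among them, Sp-Opn4L_1, had 4 reads in the SoxC morpholino library and 8 in the glycerol control, a ratio of 0.480 (0.106 to 1.79). Of the 8, 1 was lower, Sp-NmbrL_3, named for a receptor of the peptide neuromedin B. It had 2 reads in the SoxC morpholino library and 10 in the glycerol control, 5.20-fold lower (1.11 to 48.8). Of all measured models 4.75% were lower, and 7.3% of those with under 30 reads over both libraries. With 8 models, 1 lower is not read as a trait of the group. Sp-Kisspeptin-like-receptor-3 was at 114.5 in the SoxC morpholino library and 177.4 in the glycerol control, a ratio of 0.645 (0.432 to 0.956). The G protein alpha subunit models were named by letter. Sp-Gi, which lowers cyclic AMP in vertebrates, had 10954 reads in the SoxC morpholino library and 12496 in the glycerol control, a ratio of 0.842 (0.821 to 0.864). Sp-Gs, which raises it, had 3003 reads in the SoxC morpholino library and 3018 in the glycerol control, a ratio of 0.956 (0.909 to 1.01). Sp-Gq and Sp-G12 had at most 21 reads in a library and did not meet the rule. Enzymes that make the amine ligands were near the limit of detection: Sp-TH, tyrosine hydroxylase, had 6 reads in each library. Of the models named Sp-Ddc, for aromatic amino acid decarboxylase, 1 had 6 reads in the SoxC morpholino library and 14 in the glycerol control. Another had 12 reads in the SoxC morpholino library and 3 in the glycerol control and met the rule as higher, but it also carries the names Sp-Tusc4 and Sp-CLECT.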
